A study of Mus musculus with 6 samples.

Results

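The output and modulator genes of the circadian clock were examined in RNA sequencing of the mouse auditory nerve. The group holds Dbp, Tef, Hlf, Ciart, Nfil3, Bhlhe40, Bhlhe41, Rora and Rorb, which were picked by symbol, and all 9 are listed among the 17666 genes of the table. They were listed with the values of the same 6 libraries already known, so their differences between the labels are given as a description and not as a test. The 3 FactorB KO libraries came from mice with a knockout of complement factor B on a C57 background. The 3 wildtype libraries came from C57 mice. All mice were young adults of 1.5 to 2.5 months, and each library held the nerves dissected from the 2 cochleas of 1 mouse. No source used here gives the hour at which the nerves were collected, the sex of the mice or the construct of the knockout allele.

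The circadian clock is a loop of transcription in which BMAL1 (the product of Arntl), paired with CLOCK or NPAS2, switches on genes that carry an E-box, among them those of its own repressors PER and CRY. Dbp, Tef and Hlf are outputs of this loop. They encode PAR bZIP activators, which bind a sequence called the D-box, and Nfil3 encodes a repressor that competes for the same sequence. Ciart (Chrono), Bhlhe40 (DEC1) and Bhlhe41 (DEC2) encode repressors that act on E-box transcription. Rora and Rorb encode nuclear receptors that activate Arntl and other genes through a sequence called the RORE, where the REV-ERB proteins of Nr1d1 and Nr1d2 repress. In most tissues Arntl and Npas2 peak at nearly the opposite time of day from Dbp, Ciart and the Per genes.

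RefSeq promoter windows (GRCm38.p6, 250 bases before to 50 after a start) were matched for 8 of the 9 genes, all but Bhlhe40, and 10 windows in all were found. An E-box, searched as CACGTG, a sequence that reads the same on both strands, lies in 4 of the 10 windows, of Ciart, Tef and Bhlhe41. It lies in 7.15% of the 32851 promoter windows of the mouse table. The Ciart window holds 3 copies, which begin 116, 58 and 44 bases upstream of the start. The windows of Tef hold 1 each, 127 and 138 bases upstream of their starts, and that of Bhlhe41 holds 1, 153 bases upstream. The D-box, searched on both strands as TTATGTAA, TTATGCAA or TTACGTAA, is in 0 of the 10 windows and in 1.78% of all windows. The RORE is in 0 of the 10 and in 0.384% of all. No motif searched overlaps another in these windows. Of the genes lower with no overlap in the libraries labelled FactorB KO, the windows of Ciart and Tef hold the E-box. Those of Dbp and Hlf do not. Sequence outside the windows was not searched, so these genes may hold an E-box elsewhere. The window of Hlf is not shown. Those shown are of Ciart, Tef and Dbp, and of Bhlhe41, whose levels overlapped and which is shown for its E-box. Each is printed from 5′ to 3′ on the strand of the gene, with the E-box in capitals; the Dbp window has none.
Ciart (chr3:95882179-95882478, minus strand): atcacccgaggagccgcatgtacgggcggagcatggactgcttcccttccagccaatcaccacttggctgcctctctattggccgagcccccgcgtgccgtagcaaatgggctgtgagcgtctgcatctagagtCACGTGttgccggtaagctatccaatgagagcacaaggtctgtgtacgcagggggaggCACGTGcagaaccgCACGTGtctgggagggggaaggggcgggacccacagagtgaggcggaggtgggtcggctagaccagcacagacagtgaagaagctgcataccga
Tef, upstream start (chr15:81802423-81802722, plus strand): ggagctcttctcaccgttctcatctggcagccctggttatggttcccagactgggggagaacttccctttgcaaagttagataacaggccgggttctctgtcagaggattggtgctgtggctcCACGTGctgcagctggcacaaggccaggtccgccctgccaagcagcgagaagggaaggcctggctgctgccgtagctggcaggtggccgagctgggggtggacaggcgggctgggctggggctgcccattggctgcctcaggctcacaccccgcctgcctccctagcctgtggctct
Tef, downstream start (chr15:81811164-81811463, plus strand): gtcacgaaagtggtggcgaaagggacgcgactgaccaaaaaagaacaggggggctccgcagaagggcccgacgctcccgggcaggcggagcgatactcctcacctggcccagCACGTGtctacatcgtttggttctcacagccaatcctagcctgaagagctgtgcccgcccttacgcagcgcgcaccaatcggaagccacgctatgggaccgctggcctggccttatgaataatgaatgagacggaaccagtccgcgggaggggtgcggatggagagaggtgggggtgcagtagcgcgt
Bhlhe41 (chr6:145865371-145865670, minus strand): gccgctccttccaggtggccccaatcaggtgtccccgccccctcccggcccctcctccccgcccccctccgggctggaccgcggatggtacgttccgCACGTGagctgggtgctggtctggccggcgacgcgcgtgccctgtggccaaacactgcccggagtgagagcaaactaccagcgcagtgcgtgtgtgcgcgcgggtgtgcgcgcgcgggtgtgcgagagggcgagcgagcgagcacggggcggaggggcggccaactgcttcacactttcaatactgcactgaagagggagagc
Dbp (chr7:45704997-45705296, plus strand): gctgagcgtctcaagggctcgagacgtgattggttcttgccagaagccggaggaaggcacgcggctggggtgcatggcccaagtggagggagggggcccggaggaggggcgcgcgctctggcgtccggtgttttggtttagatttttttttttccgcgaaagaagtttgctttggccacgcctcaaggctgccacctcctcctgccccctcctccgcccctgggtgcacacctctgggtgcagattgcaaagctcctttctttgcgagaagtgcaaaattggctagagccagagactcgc

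None of the 9 genes lies on chromosome 17, where Cfb, the targeted gene, lies. In mm10 (GENCODE vM21), Dbp lies on chromosome 7 (45705088 to 45710203, plus strand), Tef on chromosome 15 (81802421 to 81826863, plus strand) and Hlf on chromosome 11 (90336536 to 90390895, minus strand). Ciart lies on chromosome 3 (95878503 to 95882251, minus strand) and Nfil3 on chromosome 13 (52967209 to 52981073, minus strand). Bhlhe40 (108660629 to 108666925, plus strand) and Bhlhe41 (145858243 to 145865558, minus strand) both lie on chromosome 6. Rora lies on chromosome 9 (68653786 to 69388246, plus strand) and Rorb on chromosome 19 (18930605 to 19111196, minus strand). Counts cover whole genes, so isoforms of Tef, Rora and Rorb are not separated.

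Values are the authors' normalized counts, and the scaled libraries summed to between 38675077 and 41496282. The number of reads is unknown. The level of Cfb ran counter to the labels, with 336, 351 and 376 normalized counts in the FactorB KO libraries, against 55, 39 and 116 in the wildtype libraries. Of its exon bases, 79.5% also belong to an annotated read-through gene model, and gene-level counts cannot place reads inside or outside a disrupted exon. FactorB KO and wildtype are therefore used throughout as the labels of libraries. The tissue label fitted the levels of its markers: the myelin gene Mbp and neuronal genes (Calb2, Snap25) were abundant in every library, and the marker lists of myelin and neurons summed to at least 303432 and 405202 normalized counts. Wildtype replicate 3 stood apart in genes that respond to glucocorticoids and had the highest summed level of red cell, osteoblast and neutrophil markers. Log2 differences and list medians that turn in sign or move by over 1.5 times without it are given both ways where they are named.

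Dbp, Tef, Hlf and Ciart were lower in each library labelled FactorB KO than in any labelled wildtype. Nfil3, Bhlhe40, Bhlhe41, Rora and Rorb overlapped. These 4 of 9 genes stand beside 14.9% of all 17666 genes, which were lower without overlap, and 0 of the 9 stand beside the 13.6% that were higher without overlap. Without wildtype replicate 3 the count was again 4 of 9, beside 24.2% of all genes. Ciart, Dbp and Tef, 3 of the 9, were lower with a false discovery rate under 0.05 in the authors' deposited table, beside 3.25% of the 15605 genes with a rate; 0 were higher, beside 4.14%. By limma with Benjamini-Hochberg adjustment over all genes, 0 of the 9 passed 0.05, beside 0.158% of all genes. At an unadjusted p under 0.05 there were 3 of the 9, beside 20.0%. Since the genes were listed with this contrast known, nothing is read from these counts. The median log2 difference of the 9 genes was -0.43, and -0.26 without wildtype replicate 3, beside 0.01 over all genes and -0.003 without that library. In bulk tissue, fewer cells of a type and less RNA per cell cannot be told apart.

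**Figure D1:**
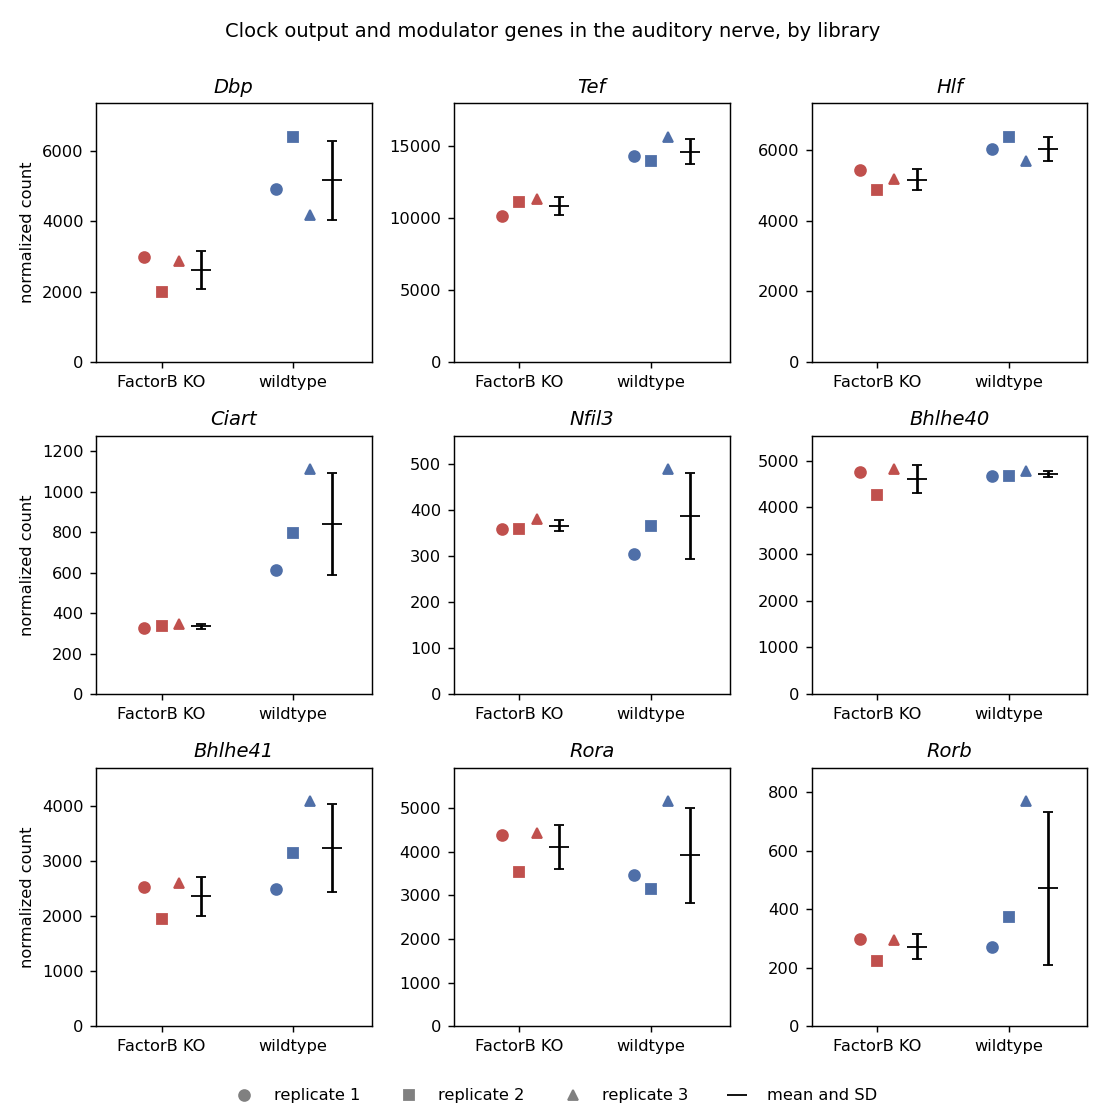
Normalized counts of the 9 genes (vertical axes from 0, scaled per gene) in the 3 libraries labelled FactorB KO (left, red) and the 3 labelled wildtype (right, blue); marker shapes give the replicate, and bars the mean and SD. The groups are apart in Dbp, Tef, Hlf and Ciart, and wildtype replicate 3 is the highest point for Tef, Ciart, Nfil3, Bhlhe41, Rora and Rorb.

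Among the PAR bZIP activators, Dbp had the widest difference. It had 2993, 1995 and 2868 normalized counts in the FactorB KO libraries, against 4916, 6399 and 4195 in the wildtype libraries. The 2 groups did not overlap, FactorB KO replicate 2 was the lowest and wildtype replicate 2 the highest. Dbp averaged 2619 ± 544 in the FactorB KO and 5170 ± 1124 in the wildtype libraries (SD, n = 3 each), so the FactorB KO mean was 50.6% of the wildtype mean. The log2 difference was -0.98 with a standard error of 0.21. Leaving out single libraries kept it between -1.12 and -0.80. Of the annotated exon bases of Dbp, 18% are shared with Sphk2 on the opposite strand, and whether the counting used strand was not given. Sphk2 had 2079, 2261 and 2308 normalized counts in the FactorB KO libraries, against 2022, 2046 and 2017 in the wildtype libraries, and so did not share the direction of Dbp.

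Tef, which encodes thyrotroph embryonic factor, was the most abundant of the 9 genes. It had 10158, 11112 and 11311 normalized counts in the FactorB KO libraries, against 14336, 13959 and 15650 in the wildtype libraries. The groups were far apart relative to their spread, with a mean of 10860 ± 616 in the FactorB KO and 14648 ± 888 in the wildtype libraries (SD, n = 3 each). The FactorB KO mean was 74.1% of the wildtype mean, a log2 difference of -0.43 (SE 0.11). Hlf, which encodes hepatic leukemia factor, had 5457, 4865 and 5189 normalized counts in the FactorB KO libraries, against 6037, 6377 and 5688 in the wildtype libraries. The gap between the groups was narrow, and the highest FactorB KO library lay just below the lowest wildtype library. Hlf averaged 5170 ± 296 in the FactorB KO and 6034 ± 345 in the wildtype libraries (SD, n = 3 each), a log2 difference of -0.22 (SE 0.10), which was -0.40 after a trend on transcript length was removed.

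The log2 differences of the 3 activators thus differed in size. With the trend on transcript length removed they lay closer together, at -0.825 for Dbp, -0.552 for Tef and -0.404 for Hlf. Levels per kilobase used the joined exons of coding transcripts, so comparisons between genes depend on that annotation. On this scale the summed level of the 3 was 4620, 4160 and 4740 in the FactorB KO libraries, against 6610, 7400 and 6420 in the wildtype libraries. Each of the 3 was lower without overlap, so the sum had to be lower as well. Dbp made up 35.3%, 26.1% and 33.0% of that sum in the FactorB KO libraries, against 40.5%, 47.1% and 35.6% in the wildtype libraries. These shares did not overlap, although FactorB KO replicate 1 and wildtype replicate 3 lay close together. Hlf made up 20.2%, 20.0% and 18.7% of the sum in the FactorB KO libraries, against 15.6%, 14.7% and 15.1% in the wildtype libraries. Its share was thus higher while its level was lower. The share of Tef overlapped, at 48.9% ± 4.8 in the FactorB KO and 43.8% ± 5.6 in the wildtype libraries (SD, n = 3 each). The ratio of Dbp to Tef overlapped as well, at 0.653 ± 0.157 in the FactorB KO and 0.959 ± 0.258 in the wildtype libraries.

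Nfil3, the repressor that competes at the D-box, had 359, 359 and 381 normalized counts in the FactorB KO libraries, against 305, 366 and 489 in the wildtype libraries. The FactorB KO values lay inside the wildtype range. Nfil3 averaged 366.3 ± 12.7 in the FactorB KO and 386.7 ± 93.7 in the wildtype libraries (SD, n = 3 each), a log2 difference of -0.05 (SE 0.20), which was 0.13 without wildtype replicate 3, -0.21 without wildtype replicate 1 and 0.08 after the length trend was removed. Per kilobase, the ratio of Dbp to Nfil3 was 9.19, 6.13 and 8.30 in the FactorB KO libraries, against 17.8, 19.3 and 9.46 in the wildtype libraries. The ratio was lower in the FactorB KO libraries without overlap, with wildtype replicate 3 only just above the highest of them. The ratio of Tef to Nfil3 was also lower without overlap, at 12.1 ± 0.5 in the FactorB KO and 16.0 ± 3.1 in the wildtype libraries (SD, n = 3 each), and that of Hlf to Nfil3 overlapped.

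Ciart had the largest log2 difference of the 9 genes. Its normalized counts were 324, 335 and 348 in the FactorB KO libraries, against 612, 794 and 1110 in the wildtype libraries. The FactorB KO values lay within a narrow band, and the wildtype values were spread widely, with replicate 3 at the top. Ciart averaged 335.7 ± 12.0 in the FactorB KO and 838.7 ± 252.0 in the wildtype libraries (SD, n = 3 each), so the wildtype mean was 2.50 times the FactorB KO mean. The log2 difference was -1.28 (SE 0.22) over all libraries and -1.05 without wildtype replicate 3. An antisense gene model overlaps the Ciart locus and shares 0 exon bases with it.

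The DEC genes are E-box repressors that also respond to many stimuli. Bhlhe40 had 4760, 4271 and 4820 normalized counts in the FactorB KO libraries, against 4680, 4681 and 4782 in the wildtype libraries. It varied least of the 9, the groups overlapped, and the log2 difference was -0.03 (SE 0.10), and -0.02 without wildtype replicate 3. Bhlhe41 had 2529, 1948 and 2589 normalized counts in the FactorB KO libraries, against 2488, 3131 and 4076 in the wildtype libraries. Wildtype replicate 1 lay below 2 of the FactorB KO libraries, so the groups overlapped. The log2 difference of -0.44 (SE 0.20) was -0.26 without wildtype replicate 3. Of the exon bases of Bhlhe41, 19% lie opposite an annotated gene model.

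The ROR receptors had their highest values in wildtype replicate 3. Rora had 4373, 3533 and 4423 normalized counts in the FactorB KO libraries, against 3458, 3137 and 5152 in the wildtype libraries. The groups overlapped, and the log2 difference of 0.10 (SE 0.20) was 0.31 without wildtype replicate 3, -0.05 without wildtype replicate 2 and -0.38 after a trend on transcript length was removed. Rora is the longest of the 9 transcripts, with 11245 exon bases. Rorb, the rarest of the 9 per length, had 298, 222 and 296 normalized counts in the FactorB KO libraries, against 271, 374 and 769 in the wildtype libraries. The high value of wildtype replicate 3 carried most of its difference: the log2 difference was -0.66 (SE 0.37) over all libraries, -0.24 without that library and -1.05 after the length trend was removed. The ratio of Rora to Rorb per kilobase was 12.3, 13.4 and 12.6 in the FactorB KO libraries, against 10.7, 7.05 and 5.63 in the wildtype libraries, with no overlap.

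**Figure D2:**
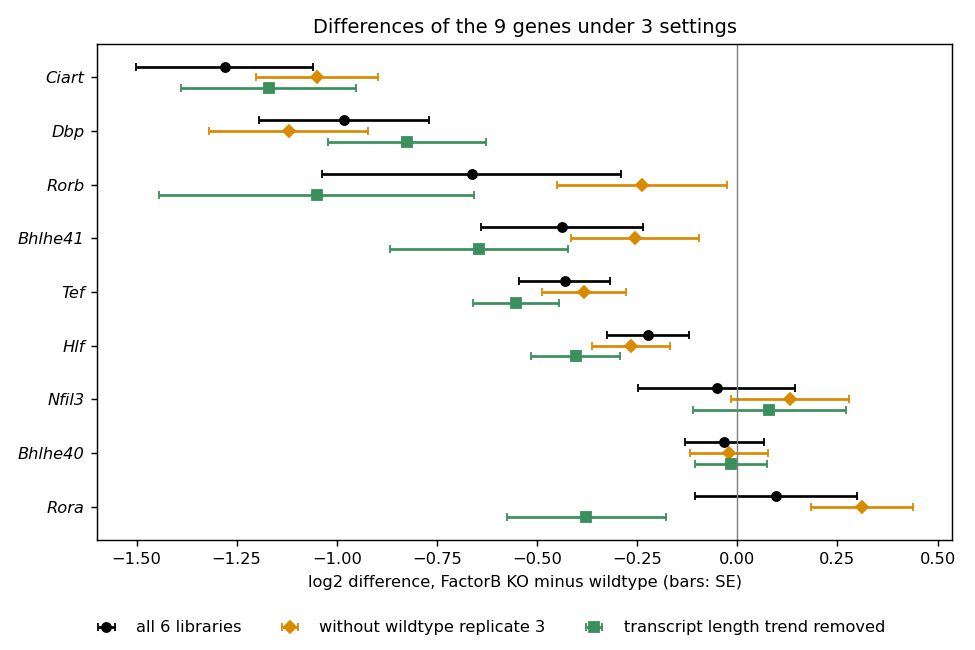
Log2 difference, FactorB KO minus wildtype, of each gene (points, with bars for the standard error) over all 6 libraries, without wildtype replicate 3 and with a trend on transcript length removed. Ciart, Dbp, Tef and Hlf stay below 0 under all 3 settings, Rorb moves from -0.66 to -0.24 without wildtype replicate 3, and Rora lies above 0 under the first pair of settings and at -0.38 under the last.

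The order of levels per kilobase differed between the labels mainly through Dbp and Ciart. In the FactorB KO libraries Tef was the highest at 2197 ± 125 normalized counts per kilobase, followed by Bhlhe40 (1457 ± 95) and Dbp (1426 ± 296), whose ranges overlapped. In the wildtype libraries Tef (2963 ± 180) and Dbp (2814 ± 612) were at the top with overlapping ranges, and Bhlhe40 followed at 1488 ± 18 (SD, n = 3 each). Hlf was the fourth in both groups, with 883.5 normalized counts per kilobase on average in the FactorB KO and 1031 in the wildtype libraries. Bhlhe41 and Rora came next in the FactorB KO libraries with overlapping ranges, followed by Nfil3 at 180.8 ± 6.3 and Ciart at 148.5 ± 5.3. In the wildtype libraries Ciart, at 370.9 ± 111.4, lay between Bhlhe41 and Rora and overlapped both, and Nfil3 was below it at 190.9 ± 46.3. Rorb was the lowest in both groups, with 28.8 ± 4.6 in the FactorB KO and 49.8 ± 27.8 in the wildtype libraries.

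Spread within a group also differed. The coefficient of variation was smaller in the FactorB KO libraries for 7 of the 9 genes, with medians over the genes of 6.52% in the FactorB KO and 24.2% in the wildtype libraries. Over the 13376 genes with a mean of at least 100 it was smaller for 85.6%, with medians of 7.31% in the FactorB KO and 17.0% in the wildtype libraries. Without wildtype replicate 3 the wildtype medians were 12.9% over the 9 genes and 10.5% over the 13376. The coefficient was then smaller in the FactorB KO libraries for 4 of the 9 genes and 62.2% of the 13376. These wildtype coefficients rest on 2 libraries, against 3 in the FactorB KO group, and no other library was left out here. How much of the wildtype spread came from wildtype replicate 3 is therefore not shown. The exceptions among the 9 over all 6 libraries were Bhlhe40, at 6.52% in the FactorB KO and 1.24% in the wildtype libraries, and Hlf, at 5.73% in the FactorB KO and 5.71% in the wildtype libraries.

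Core clock genes were read in the same libraries. Of 18 core genes 0 passed an adjusted p of 0.05 over all genes by limma, beside 0.158% of all genes. Under an unadjusted p of 0.05 lay 7 of the 18, beside 20.0% of all genes. Arntl and Npas2 were called higher and Per2, Cry1 and Nr1d2 lower in the authors' deposited table. Of all genes with a rate, 4.14% were called higher there and 3.25% lower. The median log2 difference of the list was 0.12, and 0.02 without wildtype replicate 3. Of the 18, 4 were lower and 4 higher without overlap, beside 14.9% and 13.6% of all genes, so the median hides differences in both directions. Arntl, which encodes BMAL1, had 793, 681 and 744 normalized counts in the FactorB KO libraries, against 254, 326 and 475 in the wildtype libraries (log2 difference 1.12, SE 0.23, adjusted p = 0.153 by limma). Npas2, an alternative partner of BMAL1, had 529, 472 and 486, against 111, 82 and 206 in the wildtype libraries (log2 difference 2.00, SE 0.33, adjusted p = 0.121 by limma). Both were higher in each FactorB KO library than in any wildtype library. So was Clock, with a log2 difference of 0.33 (SE 0.12). Per2, a repressor of the loop, averaged 996 ± 117 in the FactorB KO and 2049 ± 261 in the wildtype libraries (log2 difference -1.04, SE 0.14, adjusted p = 0.0625 by limma), and Cry1, its partner, averaged 384.3 ± 23.4 in the FactorB KO and 654.7 ± 52.0 in the wildtype libraries (log2 difference -0.77, SE 0.13, adjusted p = 0.124 by limma; SD, n = 3 each). Per2 and Cry1 were both lower without overlap. The hour of collection is not given, and its part in the differences of the clock genes was not tested.

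Not every core gene lay apart. Nr1d2, which encodes REV-ERB beta, had a log2 difference of -0.40 (SE 0.13) without overlap. Nr1d1, which encodes REV-ERB alpha, overlapped at 0.15 (SE 0.14). Per1 (-0.53, SE 0.39) and Per3 (-0.35, SE 0.19) overlapped; Per1 had 8980 normalized counts in wildtype replicate 3, and without that library its log2 difference was -0.05. That of Per3 was then -0.57. Without wildtype replicate 3, limma called 5 of the 18 core genes (Arntl and Npas2 higher, Per2, Per3 and Cry1 lower) and 2 of the 9 output and modulator genes (Dbp and Ciart, both lower), among 566 genes called in all.

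**Figure D3:**
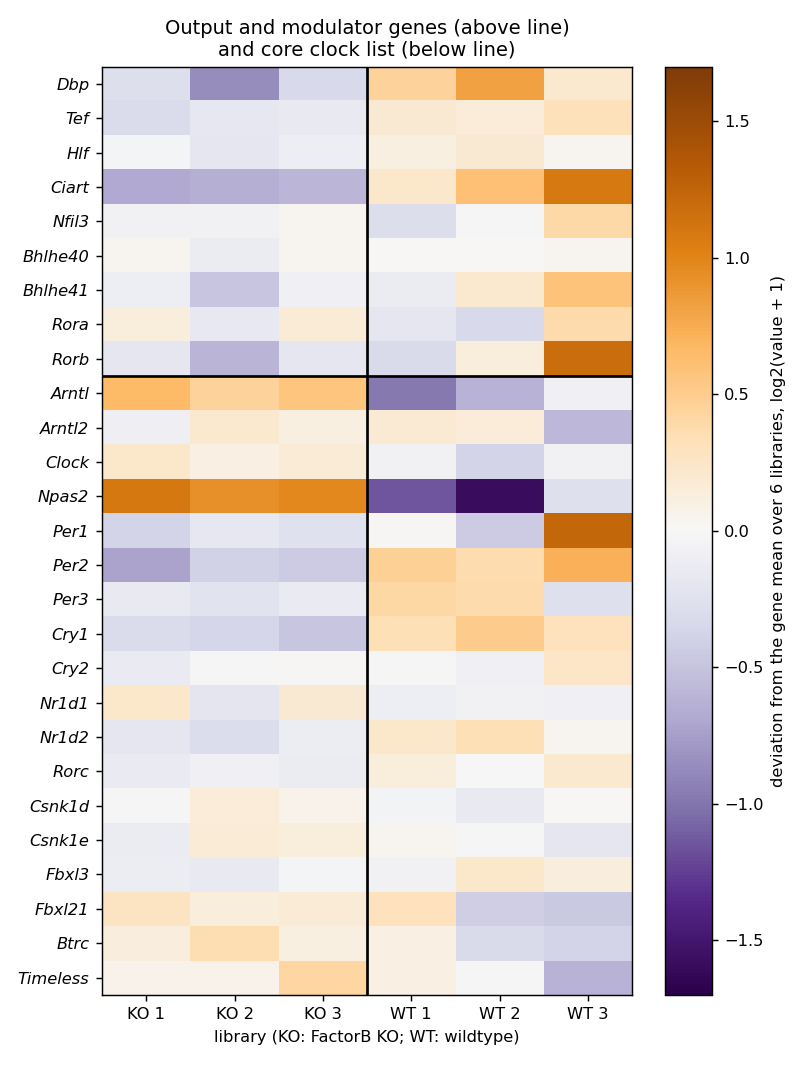
Deviation of each gene from its own mean over the 6 libraries (colour, log2(value + 1) scale; orange above, purple below) for the 9 output and modulator genes, above the line, and the 18 core clock genes, below it; columns are libraries, FactorB KO left and wildtype right. Dbp, Tef, Hlf, Ciart, Per2, Cry1 and Nr1d2 are below their mean in each FactorB KO library and above it in each wildtype library. Arntl, Npas2 and Clock show the opposite.

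Ratios within a library do not depend on how the libraries were scaled. Per kilobase, the ratio of Ciart to Arntl was 0.558, 0.672 and 0.639 in the FactorB KO libraries, against 3.29, 3.33 and 3.19 in the wildtype libraries. The wildtype values of this ratio agreed closely, wildtype replicate 3 included, although both genes alone varied among these libraries. The ratio of Dbp to Arntl was 6.35, 4.93 and 6.48 in the FactorB KO libraries, against 32.6, 33.0 and 14.9 in the wildtype libraries. It was lower in the FactorB KO libraries without overlap, and wildtype replicate 3 lay between them and the other wildtype libraries. Both ratios to Arntl had to be apart, because Dbp and Ciart were lower and Arntl higher without overlap. The ratio of Dbp to Per2 overlapped, with a mean of 8.53 ± 2.59 in the FactorB KO and 8.23 ± 2.70 in the wildtype libraries (SD, n = 3 each). So did that of Ciart to Per2, at 0.876 ± 0.086 in the FactorB KO and 1.05 ± 0.22 in the wildtype libraries.

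**Figure D4:**
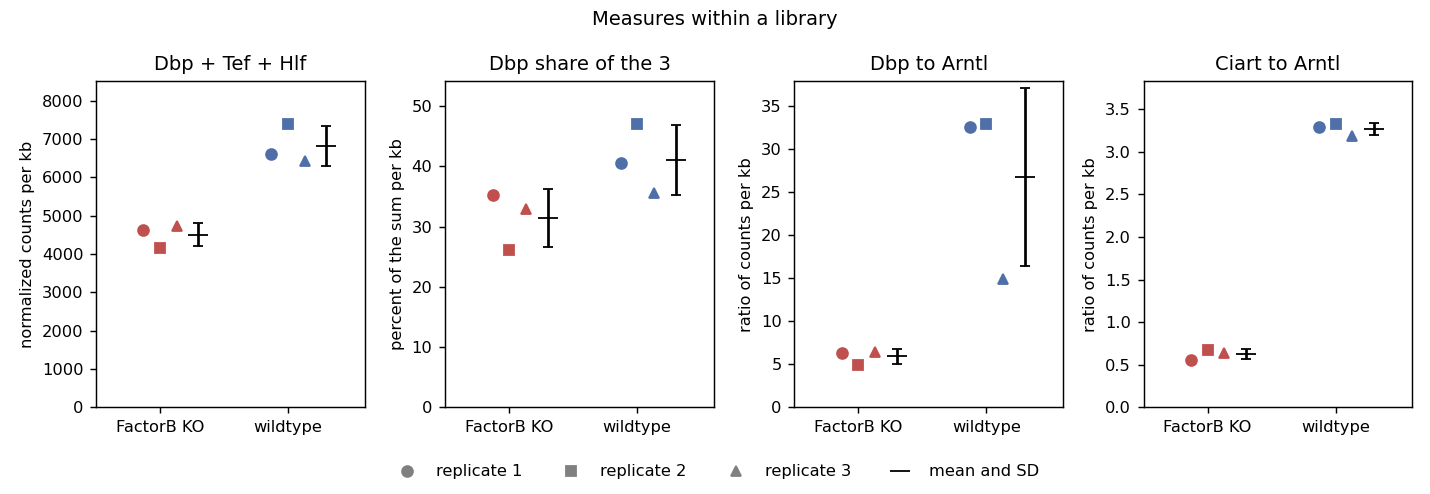
Measures taken within each library from counts per kilobase of exon (vertical axes from 0): the sum of Dbp, Tef and Hlf, the share of Dbp in that sum, and the ratios of Dbp and of Ciart to Arntl, in the FactorB KO (left, red) and wildtype (right, blue) libraries, with mean and SD. All 4 measures are apart, and the ratio of Ciart to Arntl lies between 3.19 and 3.33 in the wildtype libraries, against 0.558 to 0.672 in the FactorB KO libraries. Dbp, Tef, Hlf and Ciart are each lower and Arntl is higher without overlap. The sum and both ratios could therefore not overlap.

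Among 17 other genes known as rhythmic outputs in mouse tissues, limma called 0. Under an unadjusted p of 0.05 lay 4, beside 20.0% of all genes. Of the 17, the authors' deposited table lists 3 as lower with a rate under 0.05, beside 3.25% of all genes with a rate. The median log2 difference of the list was -0.37, and -0.14 without wildtype replicate 3. The 3 genes were Tsc22d3, Tspan4 and Coq10b, which were chosen for naming after their values were seen. Tsc22d3, a glucocorticoid-induced regulator, was the most abundant of the list, with 6860, 7916 and 7950 normalized counts in the FactorB KO libraries, against 11470, 13959 and 22772 in the wildtype libraries (log2 difference -1.03, SE 0.25, adjusted p = 0.162 by limma). Tspan4, a tetraspanin, had 847, 842 and 999, against 1582, 2167 and 2113 in the wildtype libraries (log2 difference -1.11, SE 0.16, adjusted p = 0.0665 by limma). Both were lower without overlap. Por, which encodes the reductase of the cytochrome P450 system and is a target of the PAR bZIP factors in liver, overlapped. Its log2 difference of -0.15 (SE 0.26) was 0.17 without wildtype replicate 3, where its value was highest.

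Wildtype replicate 3, in which Tef, Ciart, Nfil3, Bhlhe41, Rora and Rorb were highest, was also the highest library for genes that respond to glucocorticoids. The list of these genes was written with earlier results of these data known. All 11 of its measured genes were highest in wildtype replicate 3, beside 4872 of all 17666 genes. Their sum was between 26742 and 28904 normalized counts in the FactorB KO libraries, against 33542, 39435 and 112422 in the wildtype libraries. Sgk1, a kinase induced by glucocorticoids, had 4918, 4897 and 5624 in the FactorB KO libraries, against 6535, 7655 and 28719 in the wildtype libraries, and its log2 difference of -1.14 (SE 0.52) was -0.46 without wildtype replicate 3. Mt1, a metallothionein, averaged 4225 ± 142 in the FactorB KO and 10362 ± 5619 in the wildtype libraries (SD, n = 3 each), and its log2 difference of -1.16 (SE 0.34) was -0.75 without that library. Limma called 0 of the 11, and 3 lay under an unadjusted p of 0.05, beside 20.0% of all genes. Mt1 and Mt2 were called lower in the authors' deposited table, beside 3.25% of all genes with a rate. The median log2 difference of -0.83 was -0.43 without wildtype replicate 3. Among the 9 output and modulator genes, 6 were highest of all libraries in wildtype replicate 3, beside the same 4872 of all 17666 genes. The part of these responses in the differences of the clock genes was not tested. Without that library 8 of the 9 log2 differences kept their sign, and that of Nfil3 turned.

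Immediate early genes, which like Bhlhe40 and Nfil3 answer to acute stimuli, showed another order of libraries. Their sum was between 14826 and 18667 normalized counts in the FactorB KO libraries and between 14602 and 18015 in the wildtype libraries. Limma called 0 of 16, and 4 lay under an unadjusted p of 0.05, beside 20.0% of all genes. The median log2 difference of the 16 was 0.14. Fos and Egr1 were called higher in the authors' deposited table, beside 4.14% of all genes with a rate. Jun, the most abundant, overlapped, and its log2 difference of 0.18 (SE 0.19) was -0.02 without wildtype replicate 3, its lowest library. Egr2, the next, had a log2 difference of -0.21 (SE 0.10). Of 11 hypoxia-responsive genes, a class that includes the DEC genes in other settings, limma called 0. Under an unadjusted p of 0.05 lay 2, beside 20.0% of all genes. The median log2 difference of the 11 was -0.31, and -0.10 without wildtype replicate 3. Bnip3 was called lower in the authors' deposited table, beside 3.25% of all genes with a rate. The most abundant were Ndrg1, a gene needed to maintain peripheral myelin, and Slc2a1, a glucose transporter, and both overlapped. The log2 difference of Ndrg1 was -0.12 (SE 0.21), and -0.32 without wildtype replicate 3, and that of Slc2a1 was -0.31 (SE 0.41), and 0.23 without it.

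**Figure D5:**
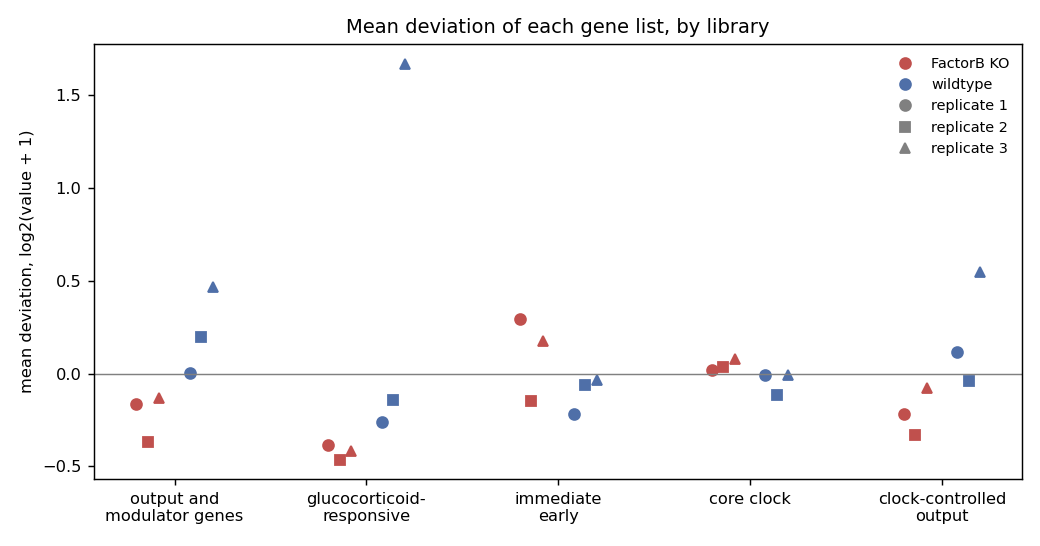
Mean deviation from the gene means over the 6 libraries (log2(value + 1) scale) of each list, by library, with FactorB KO in red to the left of wildtype in blue and marker shapes for the replicate. Wildtype replicate 3 is at 1.67 for the glucocorticoid-responsive list and at 0.47 for the 9 output and modulator genes, the highest library in both. The core clock list stays between -0.12 and 0.08, a mean in which genes that differ in opposite directions cancel.

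Markers of the cell types in the dissected tissue also differed in level. Limma called 0 of the markers in these 9 lists, beside 0.158% of all genes. The authors' deposited table called 8 of 11 red cell, 5 of 13 neutrophil and marrow, 3 of 11 osteoblast and 3 of 12 peripheral myelin markers lower. It called 5 of 15 organ of Corti, 4 of 11 vascular and 3 of 18 spiral ganglion neuron markers higher, and 0 of the 12 macrophage and 0 of the 10 central glia markers. Of all genes with a rate, it called 3.25% lower and 4.14% higher. No marker was at 0 in every library. The part of cell makeup in the differences of the clock genes was not tested.

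Red cell markers summed to 9917, 9186 and 8464 normalized counts in the FactorB KO libraries, against 16065, 17685 and 45535 in the wildtype libraries, so the groups were apart and wildtype replicate 3 was far above the other wildtype libraries. Of these 11 markers, 9 lay under an unadjusted p of 0.05, beside 20.0% of all genes. The median log2 difference of the 11 was -2.38, and -1.78 without wildtype replicate 3. The most abundant were Car2, a carbonic anhydrase, with a log2 difference of -0.42 (SE 0.29), and -0.07 without that library, and Hba-a1, a globin, with -2.04 (SE 0.35). Neutrophil and marrow markers summed to 775, 420 and 99 in the FactorB KO libraries, against 881, 1093 and 2514 in the wildtype libraries. Of 13, 10 lay under an unadjusted p of 0.05, beside the same 20.0% of all genes. The median of the 13 was -2.79, and -2.32 without wildtype replicate 3. Ltf (lactoferrin) overlapped at -2.22 (SE 1.83), and -1.43 without that library, and S100a9, a calcium-binding protein of neutrophils, stood at -3.02 (SE 0.84). Osteoblast markers summed to 123743, 102406 and 126195 in the FactorB KO libraries, against 130995, 140397 and 316987 in the wildtype libraries. Most of the high sum of wildtype replicate 3 was Spp1 (osteopontin), with 298110 normalized counts there. Spp1 had a log2 difference of -0.67 (SE 0.39), and -0.24 without that library, and Col1a1, a collagen, had 0.15 (SE 0.29), and 0.07 without it. The median of the osteoblast list was 0.07, with 5 of the 11 markers below 0 and 6 above. Bglap, Bglap2 and Ibsp, called lower in the authors' deposited table, had log2 differences of -2.08 (SE 0.38), -2.24 (SE 0.49) and -1.12 (SE 0.35).

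Organ of Corti markers summed to 37786, 38673 and 21376 in the FactorB KO libraries, against 10167, 8760 and 23409 in the wildtype libraries. The sums overlapped through FactorB KO replicate 3 and wildtype replicate 3 alone. Of 15, 10 lay under an unadjusted p of 0.05, beside 20.0% of all genes. The median log2 difference of the 15 was 1.57, and 2.22 without wildtype replicate 3. The most abundant were Otog (otogelin), at 1.87 (SE 0.54), and Otoa (otoancorin), at 0.71 (SE 0.21). Vascular markers summed to 31326, 31756 and 37969 in the FactorB KO libraries, against 26649, 26755 and 32505 in the wildtype libraries, with a median of 0.43. Rgs5, a pericyte gene, had a log2 difference of -0.20 (SE 0.17), and -0.06 without wildtype replicate 3, and Pdgfrb, a receptor of pericytes, 0.63 (SE 0.13).

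Spiral ganglion neuron markers summed to 570643, 692348 and 624721 in the FactorB KO libraries, against 682535, 620572 and 405202 in the wildtype libraries, and their median log2 difference of 0.30 was 0.10 without wildtype replicate 3. Calb2 (calretinin) stood at -0.15 (SE 0.23), and -0.28 without that library, and Snap25, a synaptic protein, at -0.12 (SE 0.33), and -0.47 without it. Both were among the 6 of the 18 markers below 0 over all libraries, and 12 were above 0. Peripheral myelin markers summed to 316717, 349583 and 303432 in the FactorB KO libraries, against 404947, 480641 and 308792 in the wildtype libraries, with a median of -0.15, and -0.31 without wildtype replicate 3. Mbp stood at -0.21 (SE 0.32), and -0.45 without that library. Central glia markers summed to 63974, 61626 and 54350 in the FactorB KO libraries, against 45693, 58474 and 33902 in the wildtype libraries, with a median of 0.32, and 0.04 without wildtype replicate 3. Gfap, an astrocyte filament, stood at 0.69 (SE 0.27), and 0.41 without that library, and Aqp4, a water channel, at 0.35 (SE 0.29), and 0.02 without it. Macrophage markers summed to 12598, 11347 and 11114 in the FactorB KO libraries, against 11612, 11448 and 12630 in the wildtype libraries, with a median of 0.008, and -0.014 without wildtype replicate 3. Csf1r, a receptor of macrophages, stood at 0.17 (SE 0.11), and Lyz2 (lysozyme) at -0.16 (SE 0.18), and 0.003 without that library.

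The genes whose profiles over the 6 libraries lay nearest to those of the clock genes were found by the root mean square difference of mean-centred log2 values, among 12848 other genes with a mean of at least 100, leaving out symbols that only number a gene model. The 4 nearest to Dbp were Fcf1 (0.14), Zfp758 (0.19), Decr2 (0.21) and Inmt (0.22). The output and modulator gene nearest to Dbp was Tef, at 0.413, with Hlf and Bhlhe41 at 0.426 and Ciart at 0.435. The nearest to Ciart was Msrb1 (0.11), with 583, 543 and 532 normalized counts in the FactorB KO libraries, against 904, 1118 and 1711 in the wildtype libraries. The nearest to Rorb was Klf10 (0.067), which was also highest in wildtype replicate 3, and the nearest to Bhlhe41 was Btg3 (0.040). The nearest to Tef was Hes6 (0.051), to Hlf Nae1 (0.020), to Nfil3 Tk2 (0.0365), to Bhlhe40 Wdsub1 (0.024) and to Rora Ctnnd1 (0.040). A small distance is reached more easily by genes that vary little, so the distances are descriptions within each gene.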

How the data were processed

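Per the labels' protocols, miRNeasy-purified total RNA entered TruSeq RNA libraries. The submitters' processing notes list TopHat2, Partek, DESeq2 and the build mm10, with neither roles nor versions. The deposited table holds a score per gene and library that the authors made, read from the values as counts scaled per library and rounded, here called normalized counts: the median-of-ratios factors were 1.0038 to 1.0068. A signed fold change and a false discovery rate (q-value) of the authors stand beside it; 2061 genes have no rate. The scaling cannot be undone to whole reads, so count models were not fitted.

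Limma 3.58.1 in R 4.3.3 was fitted to log2(value + 1) with label as the only term, eBayes with a trend and Benjamini-Hochberg adjustment over 17666 genes; a minimum mean of 1 removed 0 genes. Fold changes on this scale understate those of low genes. The fit was tested on data simulated with the real gene means and spread. It recovered 48 of 100 changes of 2-fold and 85 of 100 of 4-fold, with 4 false calls. A count of 0 called by limma thus does not show that levels were unchanged. Exon lengths and loci came from GENCODE vM21, and 98.3% of genes had a length. Lengths joined the exons of coding transcripts where a gene had any. The shares of exon bases that overlap another gene model used the exons of all transcripts. Pseudocount, scaling, filter, variance model, block, length and left-out libraries were varied. No 2 libraries were duplicates (chi-square per gene of 25.7 or more). The 9 genes and all lists were chosen with earlier results of these data known. Named genes were the 9, Cfb, 8 core clock genes, and in each other list up to 4 past the threshold or else the 2 most abundant, plus the nearest profiles; others were named after their values were seen. The labels give no batch. There were 0 sample columns left unused. Of the marker genes, 2 are not reported here and were left out of their list.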

Additional observations from a re-analysis of the deposited data

How the results depend on the processing

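The log2 differences of Dbp, Ciart, Tef, Hlf, Bhlhe41 and Rorb stayed below 0 under each of the 18 alternatives. Leaving out single libraries gave -1.12 to -0.80 for Dbp, -0.47 to -0.38 for Tef, -0.27 to -0.18 for Hlf, -1.48 to -1.05 for Ciart, -0.61 to -0.26 for Bhlhe41 and -0.99 to -0.24 for Rorb. It gave -0.21 to 0.13 for Nfil3, -0.06 to 0.02 for Bhlhe40 and -0.05 to 0.31 for Rora, whose directions were not stable. With a trend on transcript length removed, Tef was -0.55, Hlf -0.40, Rora -0.38, Rorb -1.05 and Nfil3 0.08, and with array weights Rorb was -0.39; the cause was not tested. Limma called 28 genes over all, 16 without the trend on the mean, 111 with array weights, 7 with a replicate block, 18 with the length trend removed and 0 to 566 without single libraries: 0 without any 1 FactorB KO library (1797 to 2218 genes under an unadjusted p of 0.05), and 87, 2 and 566 without wildtype replicates 1, 2 and 3. It called 0 core clock genes, but 1 (Per2) under upper-quartile scaling, total-sum scaling or length correction, 3 with array weights, and 0 to 5 without single libraries. Of the 9 output and modulator genes it called 0, but 1 (Ciart) with array weights and 0 to 2 without single libraries: Ciart without wildtype replicate 1, and Dbp and Ciart without wildtype replicate 3. The main fit did not pair libraries by replicate number. Same-numbered libraries had correlations of -0.065, 0.10 and 0.25 over genes averaging 50 or more. FactorB KO replicates 1 and 3 both correlated best with wildtype replicate 3 (0.071 and 0.25), and FactorB KO replicate 2 with wildtype replicate 1 (0.47). These values cannot show whether libraries were collected or prepared in pairs. Without wildtype replicate 3, an alternative added after seeing the data, 4 of the 9 genes were lower without overlap, beside 24.2% of all genes. The filter of 1 and no filter gave the same fit. With 3 libraries each, an exact permutation test of 1 value cannot go below a p of 0.1. The depth behind the values is unknown.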
